A study of Solanum lycopersicum with 12 samples.

Results

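The ethylene response factors measured here were the tomato genes named ERF or Pti with a number, CBF genes excluded. They were found by symbol or synonym in the array's annotation, with older symbols updated through RefSeq. The rule took 10 probe sets of 9 genes, out of 10038 probe sets tested, 909 of which had a gene name. The 9 genes were ERF1a (also TERF1), ERF2, ERF3, ERF4, ERF-H1 (synonym ERF1), PTI1, PTI4, PTI5 and PTI6. ERF3 had 2 probe sets, and PTI1 is a protein kinase that shares the Pti name but is no transcription factor.

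The members were compared between transgenic tomato of line 4 (L4), which expresses the Arabidopsis Zn and Cd export ATPase AtHMA4 under the constitutive 35S promoter, and the wild type (WT) of var. Beta. Plants of both genotypes received 5 μM Zn. Roots of the groups were laser-dissected into epidermis + cortex (EC) and stele (S), giving the 4 groups WT EC, WT S, L4 EC and L4 S with 3 arrays each. The question was whether the response factors differed with genotype in either sector, or between the sectors of a genotype. By the labels the plants were 25 days old and had spent 15 days in the Zn solution, from a seedling age of 10 days, whereas the study's methods give a shorter exposure. A root pool held 6 plants, from which fragments of 2.0 cm were taken behind the apical 1.5 cm, and by the study's methods both sectors were cut from the roots collected in each of 3 experiments. The labels give EC and S of an experiment only a shared replicate number, and same-numbered EC and S arrays of a genotype were taken as one root pool. Their deviations from the group means correlated by -0.27 to 0.63 over the 6 pairs, so the arrays themselves do not establish the pairing. L4 is a single transgenic line, and the array carries no probe set named for AtHMA4, so the transgene was not checked. The p-values do not separate the transgene from other properties of the line. Those within a sector rest on the spread among the 3 arrays of a group, shared over the 4 groups. Those of the average over both sectors rest on the spread between 3 root pools per genotype. Those between sectors rest on the spread of EC against S within pools.

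Ethylene is sensed by membrane receptors that, without the hormone, keep a kinase of the CTR class active, and once released the pathway acts through EIN2 on EIN3-like (EIL) factors, which switch on ERF genes. ERF proteins carry an AP2/ERF domain, and many bind the GCC box in promoters of defence and ethylene-regulated genes. The Pti proteins were found as partners of Pto, the tomato kinase that gives resistance to bacterial speck: Pti4, Pti5 and Pti6 are ERF-type factors, whereas Pti1 is a kinase that Pto phosphorylates.

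All values are log2 signals as deposited. The 12 arrays had medians of 3.75 to 4.08. Background was read from 63 probe sets for reporter genes that tomato lacks: their 95th percentile was 2.88 to 3.82 on 11 arrays and 6.51 on the array of L4 EC replicate 2. That array also had the highest mean signal of the control spike-ins, 13.9 against 9.65 to 12.4 on the others. The RNA had been amplified, and the actin control read 7.63 to 10.5 log2 units more at its 3′ than at its 5′ end. Of 10 probe sets for sector markers 0 passed the adjusted test between EC and S in either genotype. The same test called 0 of all 10038 probe sets, so the count says nothing particular of the markers. Among EC markers, EC minus S was 1.73 in WT and 0.48 in L4 for the phosphate transporter PT1 and 1.55 and 0.088 for PT2. The expansin EXPA8 had 0.077 in WT (SE 2.02) and 3.26 in L4, and the expansin exp18 had -0.32 and -0.91. The iron reductase FRO1 and ext1 lay near background in all groups. Among stele markers, the sucrose transporter SUT2 read higher in EC, by 0.64 in WT and 0.51 in L4. The sucrose synthase sus3 had 0.21 and -0.21, and both SUT4 probe sets were dim and changed sign between the genotypes.

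ERF2, a factor known in tomato for acting on ethylene synthesis and seed germination, was the member that separated the genotypes. In WT EC its signal was 6.33, 8.20 and 8.92, and in L4 EC it was 3.36, 3.75 and 2.48. In WT S it was 7.99, 8.93 and 7.80, and in L4 S it was 4.11, 3.38 and 4.20. All 6 L4 values lay below all 6 WT values, the highest L4 array (4.20, S) below the lowest WT array (6.33, EC). Its order of group means was WT S (8.24 ± 0.60, SD, n = 3), WT EC (7.82 ± 1.34), L4 S (3.90 ± 0.45) and L4 EC (3.20 ± 0.65).

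**Figure D1:**
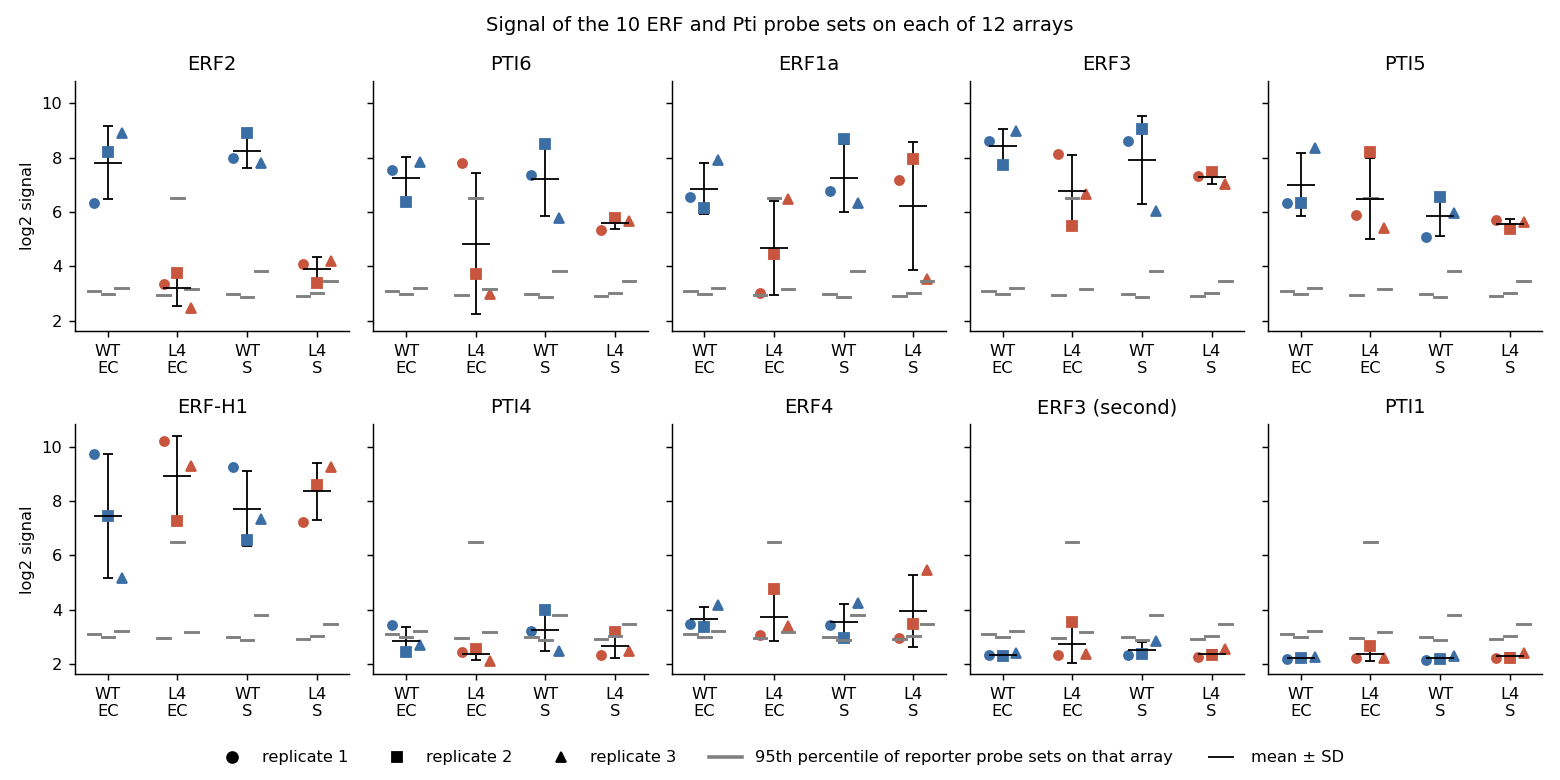
Log2 signal of the 10 ERF and Pti probe sets on each array, by group (WT blue, L4 red), with replicate numbers as symbols, group mean ± SD in black (n = 3) and the 95th percentile of the array's reporter probe sets in grey. ERF2 is the panel in which no L4 array reaches a WT array in either sector, and PTI1, PTI4 and the second ERF3 probe set lie near the grey marks.

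The L4 minus WT difference of ERF2 was -4.62 in EC (SE 0.64, 95% interval -6.06 to -3.18) and -4.34 in S (SE 0.64, interval -5.78 to -2.91). These are 24.6-fold and 20.3-fold lower signals. With adjustment over all 10038 probe sets limma gave adjusted p = 0.138 in EC and adjusted p = 0.344 in S, so neither difference passed the 0.05 threshold. In each sector 0 probe sets of the array were called at that threshold (0% of those tested), while 717 in EC and 252 in S had an unadjusted p under 0.05 and a 1.2-fold change. By unadjusted p, ERF2 ranked 3 in EC and 1 in S among all probe sets. The fit that weights arrays by their quality gave ERF2 a difference of -5.36 in EC with a limma adjusted p = 0.00129, and called 1530 probe sets. Without WT EC replicate 1, the lowest WT array for ERF2, the difference in EC was also -5.36, with a limma adjusted p = 0.0102. Over all alternatives run, the limma adjusted p of ERF2 in EC lay between 0.00129 and 0.929.

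Averaging EC and S of each root pool gave WT values of 7.16, 8.56 and 8.36 and L4 values of 3.74, 3.57 and 3.34. The averaged difference was -4.48 (SE 0.40, n = 3 pools each, limma adjusted p = 0.138). An exact two-sided permutation test over the 6 pools gave p = 0.1, the smallest that its 20 arrangements allow. Among probe sets with a mean log2 signal of at least 4 the same difference passed, at a limma adjusted p = 0.0345. ERF2 met that filter through WT, its L4 means being 3.20 in EC and 3.90 in S, so this pass is no separate support. The difference also passed without WT replicate 1, at -4.92 and a limma adjusted p = 0.0457. A fit to the 12 arrays that made no use of the root pools gave the difference of -4.48 a limma adjusted p = 0.0149. That fit counts EC and S of a pool as independent arrays, so it overstates the replication if they share roots. Over all alternatives for the average the limma adjusted p lay between 0.0149, from that fit, and 0.518.

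The ERF2 signal of L4 was close to the array background, which limits the fold. It exceeded the reporter 95th percentile of its own array on 1 of 3 L4 EC arrays, 3 of 3 L4 S arrays and all 6 WT arrays. With every value raised to at least that percentile, the ERF2 difference in EC was -3.47, or 11.1-fold lower, and in S it stayed -4.34. In tissue cut from roots, fewer cells that express a gene and less RNA per cell cannot be told apart.

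Every L4 array below every WT array of its sector was found for 6.35% of all probe sets in EC and for 2.49% in S. Among the members this held for 1 in EC, ERF2, and for 2 in S, ERF2 and PTI6. It held in both sectors at once for 0.638% of all probe sets and, among the members, for ERF2.

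**Figure D2:**
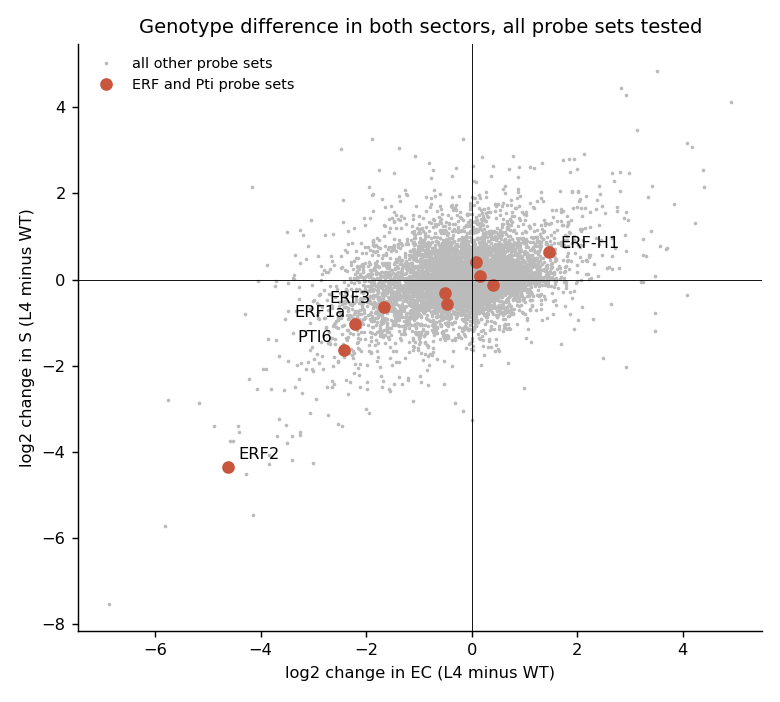
L4 minus WT log2 difference in EC (horizontal axis) against that in S (vertical axis) for all 10038 probe sets, with the 10 ERF and Pti probe sets in red. ERF2 lies far down and left, at -4.62 and -4.34, PTI6, ERF1a and ERF3 lie on the negative side of both axes, and ERF-H1 lies on the positive side of both.

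PTI6, a Pto partner that is also named as cytokinin response factor SlCRF1, had signals of 7.54, 6.39 and 7.83 in WT EC and 7.80, 3.72 and 3.003 in L4 EC. In S it had 7.37, 8.51 and 5.79 in WT and 5.33, 5.78 and 5.67 in L4. In L4 EC the first replicate stood at the WT level and the others several units below it. Above the reporter percentile of its own array, PTI6 was found on 1 of 3 L4 EC arrays and 3 of 3 of each other group. The low L4 EC values thus lay at background, which limits the size of the difference in EC. The 3 L4 S arrays lay close together just under the lowest WT S array. The difference was -2.41 in EC (SE 1.15, limma adjusted p = 0.712) and -1.63 in S (SE 1.15, limma adjusted p = 0.99998). With array weights the difference in EC was -3.37, with a limma adjusted p = 0.0253, the lowest of a range that reached 0.988 under other alternatives. The replicate with the WT-like value was not the array with the high background.

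ERF1a is TERF1, which in tobacco raises tolerance to drought and salt. It read 6.54, 6.15 and 7.92 in WT EC and 3.04, 4.47 and 6.48 in L4 EC. The 4.47, on the array with the high background, was under the reporter percentile of that array. In S it read 6.77, 8.70 and 6.33 in WT and 7.20, 7.96 and 3.54 in L4. The groups overlapped in both sectors, and in S a single L4 array, replicate 3, lay far below the rest. The difference was -2.20 in EC (SE 1.26) and -1.03 in S (SE 1.26), and without L4 S replicate 3 the one in S turned to 0.32.

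ERF3 (LeERF3b), a repressor-type member, read 8.61, 7.75 and 8.97 in WT EC and 8.16, 5.49 and 6.68 in L4 EC on its first probe set. In S it read 8.61, 9.07 and 6.05 in WT and 7.34, 7.48 and 7.02 in L4. The WT S array of replicate 3 was the lowest of its sector, so the groups overlapped in S, and in EC 1 L4 array lay inside the WT range. The 5.49 in L4 EC, on the array with the high background, was under the reporter percentile of that array. The difference was -1.67 in EC (SE 0.84) and -0.63 in S (SE 0.84). The second ERF3 probe set stayed under the reporter percentile on all 12 arrays, at 2.26 to 3.56, and so gave no measure of the gene beside the first.

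ERF-H1, known as LeERF1 in fruit ripening, had higher means in L4 than in WT in both sectors. Its signals were 9.72, 7.45 and 5.15 in WT EC and 10.2, 7.26 and 9.27 in L4 EC. In S they were 9.24, 6.57 and 7.33 in WT and 7.22, 8.61 and 9.26 in L4. WT EC alone spanned 5.15 to 9.72, and the genotypes overlapped in both sectors. The difference was 1.47 in EC (SE 1.23) and 0.65 in S (SE 1.23), and with array weights the one in S was -0.50.

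PTI5, a Pto partner that binds the GCC box, was above the reporter percentile on all 12 arrays. It read 6.33, 6.34 and 8.35 in WT EC and 5.89, 8.20 and 5.41 in L4 EC. In S it read 5.10, 6.56 and 5.97 in WT and 5.70, 5.38 and 5.63 in L4. Each genotype had 1 EC array well above its other EC arrays, and in L4 this was the array with the high background. The difference was -0.51 in EC (95% interval -2.26 to 1.25) and -0.30 in S (interval -2.06 to 1.45).

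The other members were dim. ERF4, which is Sl-ERF.B3, ranged from 2.95 to 5.45 with the highest value in L4 S replicate 3, and differed by 0.07 in EC and 0.40 in S. It was above the reporter percentile on 11 of 12 arrays. PTI4, the GCC-box factor that Pto phosphorylates, ranged from 2.11 to 3.99 and was above the reporter percentile on 4 of 12 arrays. Its difference was -0.48 in EC and -0.57 in S. The kinase PTI1 ranged from 2.16 to 2.68 and was above that percentile on 0 of 12 arrays, so it had no level above background to compare. In L4 EC replicate 2, the array with the high background, PTI1, ERF4 and the second ERF3 probe set had their highest EC values.

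**Figure D3:**
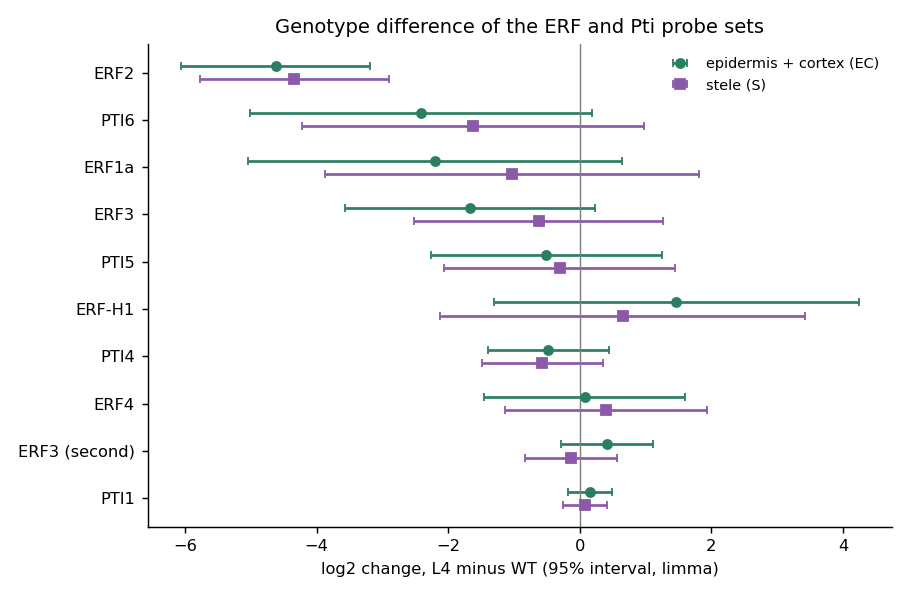
L4 minus WT log2 difference of each ERF and Pti probe set in EC (green circles) and S (purple squares), with 95% intervals from the limma fit to 12 arrays. The intervals of ERF2 lie wholly below 0, at -6.06 to -3.18 in EC and -5.78 to -2.91 in S, and those of the other 9 probe sets include 0.

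Over the 10 member probe sets the median difference was -0.49 in EC and -0.44 in S, beside 0.07 and -0.01 over all probe sets. The difference was below 0 for 6 members in EC, where 39.6% of all probe sets were below 0, and for 7 in S, where 52.1% were. It was below 0 in both sectors for 6 members and for 23.4% of all probe sets. The median in EC was -0.20 without WT EC replicate 3, -0.76 without WT EC replicate 2, -0.80 without L4 EC replicate 2 and -0.15 without L4 EC replicate 3. The median in S was -0.12 without WT S replicate 2. With all values raised to the reporter percentile the median in EC was 0.072, that percentile being 6.51 on L4 EC replicate 2.

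An unadjusted p under 0.05 with a 1.2-fold change was reached by 1 member in EC (7.14% of all probe sets) and 1 in S (2.51%), which was ERF2, lower in L4, in both. Lower at that threshold were 4.86% of all probe sets in EC and 1.32% in S. In the average over the sectors it was reached by 4 members, all lower in L4, where 4.53% of all probe sets were that low and 6.96% passed in either direction. These were ERF2, PTI6 (-2.02, SE 0.63), ERF1a (-1.62, SE 0.40) and ERF3 (-1.15, SE 0.45). None passed after adjustment, with limma adjusted p of 0.586 for PTI6, 0.441 for ERF1a and 0.708 for ERF3. The count rests on the pairing of EC and S into pools: in the fit that made no use of the pools, 2 members reached the unadjusted threshold, ERF2 and PTI6, where 4.32% of all probe sets were that low.

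The sectors were compared within the pools formed by replicate number. After adjustment 0 members were called in either genotype, as were 0 of all 10038 probe sets. Leaving the pools out of the fit also called 0 members and 0 probe sets. For ERF2, EC minus S was -1.65, -0.73 and 1.12 in WT pools 1 to 3 and -0.75, 0.37 and -1.71 in L4 pools 1 to 3. EC read lower in 2 of 3 pools of each genotype. The mean EC minus S difference of ERF2 was -0.42 in WT (95% interval -2.02 to 1.18) and -0.70 in L4 (interval -2.29 to 0.90), so the order of EC and S within a genotype was inside the spread. The genotype difference of ERF2 itself differed between the sectors by -0.28 (EC minus S, interval -2.54 to 1.98, limma adjusted p = 0.984).

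**Figure D4:**
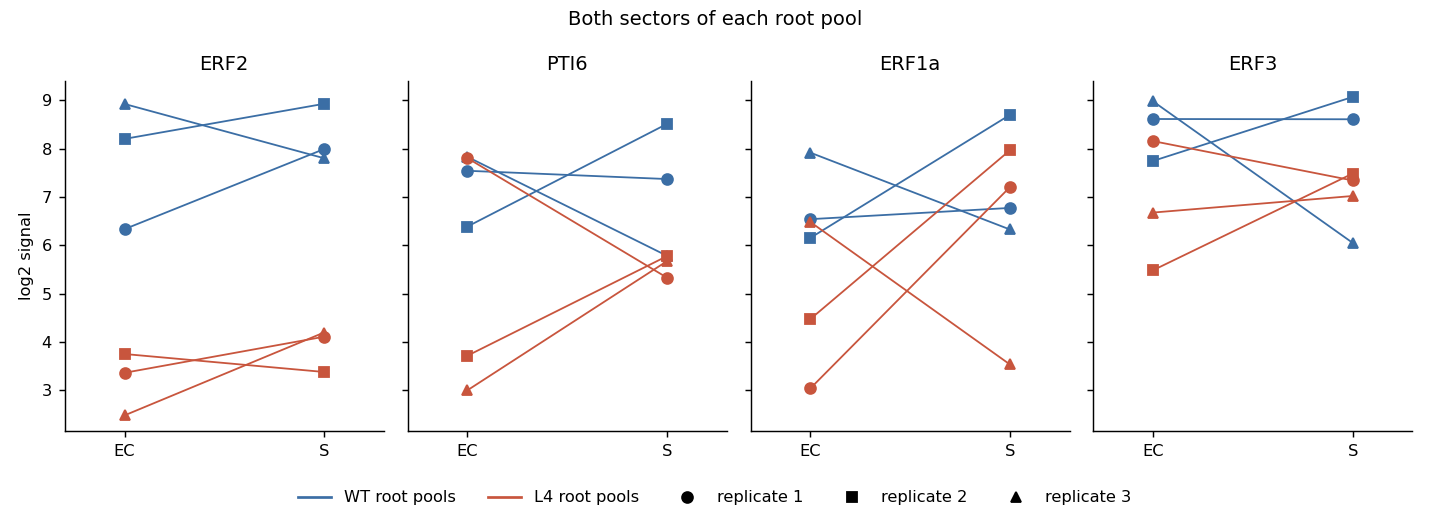
Log2 signal of ERF2, PTI6, ERF1a and the first ERF3 probe set in EC and S of each root pool, joined by a line (WT blue, L4 red, symbols for replicates 1 to 3). For ERF2 the WT and L4 lines stay apart over both sectors, and for each of the 4 genes lines of one genotype run both up and down.

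No member reached an unadjusted p under 0.05 between EC and S in WT (0 of 10, beside 2.75% of all probe sets), in L4 (0 of 10, beside 4.08%) or for the difference between the genotypes (0 of 10, beside 2.41%). PTI5 had the sector difference with the largest size among the WT comparisons, 1.13 higher in EC (interval -0.77 to 3.04). In L4 it read 0.93 higher in EC (interval -0.97 to 2.83), from pools at 0.19, 2.82 and -0.22. The 2.82 came from the pool whose EC array had the high background. For ERF1a, EC minus S was -4.16, -3.49 and 2.94 in L4 pools 1 to 3, so its mean of -1.57 (SE 1.57) joined opposite pools. In WT, EC was below S in 3 of 3 pools for 1 member, against 9.92% of all probe sets. That member was the second ERF3 probe set, which lay at background.

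Members that read high or low together were sought in the deviations of each array from its group mean. PTI6 and the first ERF3 probe set deviated together (r = 0.82 over 12 arrays from 6 root pools). Both were low in WT S replicate 3 and L4 EC replicate 2 and high in L4 EC replicate 1. On L4 EC replicate 2 both were under the reporter percentile. PTI5 and ERF-H1 deviated in opposite directions (r = -0.82). PTI1 and the second ERF3 probe set had r = 0.97, and both were at background and highest on the array with the high background. The correlations are descriptions over arrays that share pools and amplification.

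The genes whose signal was most like that of ERF2 over the 12 arrays, among 619 other named probe sets with a group mean of at least 4, were ACO5 (r = 0.95), sus3 (r = 0.92), ETR6 (r = 0.91), ADH2 (r = 0.90) and LOC778326 (r = 0.90). ACO5 is an ACC oxidase, the enzyme class of the last step of ethylene synthesis, ETR6 an ethylene receptor, sus3 a sucrose synthase and ADH2 an alcohol dehydrogenase. ACO5 read 6.58 to 12.6 in WT and 1.95 to 5.56 in L4. ETR6 read 4.78 to 6.79 in WT and 2.12 to 3.69 in L4. ACO5 was above the reporter percentile on 0 of 3 L4 EC and 1 of 3 L4 S arrays, and ETR6 on 1 and 2. The brighter sus3 read 13.2 to 13.8 in WT and 11.5 to 12.7 in L4, ADH2 13.7 to 15.0 and 11.5 to 13.1, and LOC778326 10.1 to 11.9 and 7.74 to 9.61. For each of these genes no L4 array reached a WT array, and such a difference between genotypes by itself gives a high r. Within groups, deviations from the group mean gave r = 0.86 for ACO5, 0.27 for ETR6, 0.46 for sus3, 0.57 for ADH2 and 0.60 for LOC778326.

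Other genes of the pathway were counted from symbol lists. Of 15 probe sets for receptors and signalling, 13 were below 0 in EC (median -1.39) and 11 in S (median -0.61), and 6 in EC and 2 in S were lower at an unadjusted p under 0.05. Over all probe sets, 39.6% were below 0 in EC and 52.1% in S, and 4.86% and 1.32% were lower at that threshold, which is the background for each list here. Of the receptors and signalling genes, ETR6 differed by -2.72 in EC, or by -1.12 with values raised to the reporter percentile, and the EIN3-like factor EIL2, above that percentile on all 12 arrays, by -1.39. Ethylene synthesis had 7 of 15 probe sets below 0 in EC (median 0.02) and 13 of 15 in S (median -0.43). Several of these were dim, such as ACS5 with a 12-array mean of 1.99, and the medians include them. ACO5 differed by -6.87 in EC and -7.53 in S, or by -6.18 and -6.95 with values raised to the reporter percentile. ACO4 differed by -1.14 and -0.19, and the brightest ACO6 probe set by 0.75 and 1.84. No list had a probe set that passed the limma test after adjustment.

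Of 6 probe sets for AP2/ERF genes under other names, 2 were below 0 in EC (median 0.11) and 5 in S (median -0.42). The 2 were the jasmonate- and ethylene-responsive factors JERF1, at -1.10 (SE 0.40), and JERF3, at -1.45 (SE 0.61), both lower at an unadjusted p under 0.05 in EC. CBF1, a cold-type AP2/ERF factor left out by the rule, was above the reporter percentile on 1 of 3 L4 EC and 0 of 3 L4 S arrays. It differed by -4.14 in EC and -5.46 in S as measured, and by -2.50 and -4.51 with values raised to that percentile. Both raised values are only bounds, since L4 arrays were raised in each sector. The other 4 probe sets of the list, DREB1, DREB2, DREB3 and EREB, differed by 0.09 to 0.29 in EC. They were dim, with 12-array means of 2.003 to 2.88, and the counts and medians of the list include them. JERF1 and JERF3 were its bright probe sets, with 12-array means of 11.6 and 10.98. In S they differed by -0.47 and -0.896, so both were lower in L4 in both sectors.

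The lists of ethylene-responsive and defence genes had differences of both signs, and several of their probe sets lay near background. Of 13 probe sets named for ethylene-responsive genes, 6 were below 0 in EC (median 0.02) and 5 in S (median 0.07). This list holds CTR1 through its synonym ER50, a signalling kinase that is also counted among receptors and signalling. Of 13 probe sets for pathogenesis-related proteins, chitinases, glucanases and osmotins, the class known to carry the GCC box, 5 were below 0 in EC (median 0.11) and 10 in S (median -0.31). These counts and medians include dim probe sets, such as PR-P2 and P4 with 12-array means of 2.50 and 2.66. Most of the brighter ones were lower in L4 in both sectors, such as NP24-I at -1.27 in EC and -0.95 in S. GLUII, also bright, differed by 0.21 in EC and -0.75 in S. The glucanase GluB differed by -2.997 in EC (SE 0.90) and by -1.85 in S, and the chitinase CHI3 by 2.72 in EC (SE 1.29).

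**Figure D5:**
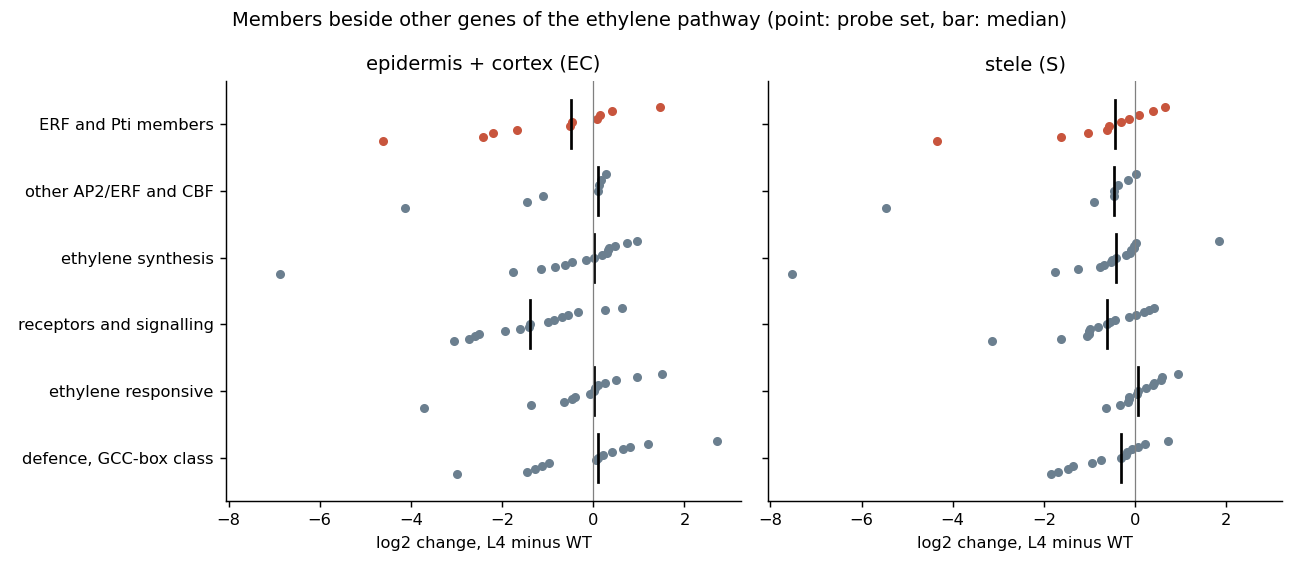
L4 minus WT log2 difference of each probe set (points, with a bar at the median) of the ERF and Pti members and of 5 other groups of ethylene-related genes, in EC (left) and S (right). The receptors and signalling group has the lowest median in EC, -1.39, and the member median is -0.49 there and -0.44 in S.

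In the gene order of the tomato RefSeq assembly SLM_r2.1, ERF2 and the ethylene receptor gene LOC544279 (ETR3, the Never-ripe receptor) were separated by 1 gene. LOC544279 differed by -1.61 in EC (SE 1.08) and -1.02 in S (SE 1.08), beside -4.62 and -4.34 for ERF2. ERF4 and PTI4 were likewise separated by 1 gene, and both were dim in these roots. The neighbour of PTI4, Rab1C, a small GTPase, read 8.65 to 9.37 in WT and 4.15 to 9.51 in L4, and differed by -1.47 in EC (SE 1.21) and -0.30 in S (SE 1.21).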

How the data were processed

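RNA of laser-dissected root sectors was amplified, labelled and hybridised to 12 GeneChip Tomato Genome Arrays, 1 per sample. The deposited values are log2 signals per probe set, summarised and normalized by the authors. The sources used here do not give the method. The log2 scale was read from the values. All 12 value columns were used. From 10209 probe sets, 108 Affymetrix controls and 63 reporter probe sets were left out, and 10038 were tested. Linear models were fitted under R 4.3.3 by limma 3.58.1, with moderated statistics and Benjamini-Hochberg adjustment over all probe sets (called at adjusted p under 0.05 and at least 1.2-fold). Genotypes were compared in a fit to 12 arrays, and sectors with the root pool, formed by replicate number, as a fixed block. EC and S of one pool deviated from their group means with r = -0.27 to 0.63. The fit was also run on simulated arrays with planted changes. Their spread was capped below that of ERF2 here, so that run does not measure power or error rates in these data. Figures were drawn with matplotlib 3.10.9.

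Symbols came from the platform annotation, and 885 of 909 named probe sets were updated through RefSeq (assembly SLM_r2.1). Every member was named, with the 5 genes most like ERF2 by Pearson r and at most the 2 with the smallest p per direction of each other list. The receptor gene next to ERF2 and Rab1C were added after their values were seen, as was reading background from the reporter probe sets. A list for Pto and its resistance partners matched no probe set. Members and lists were chosen with earlier results of these data known. Alternatives comprised normalization, filters, moderation, array weights, a spike-in covariate, blocks and left-out arrays. The number of arrays limits the precision.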

Additional observations from a re-analysis of the deposited data

Results flagged for a closer look

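A signal outside the main measurement was picked out on the array of L4 EC replicate 2, where the 95th percentile of the 63 reporter probe sets was 6.51, above the 3.82 that was the highest among the 6 WT arrays. Without that array, the ERF2 difference in EC was -4.90, and the second ERF3 probe set and ERF4 differed by -0.00028 and -0.44. Its part in the members' values was not tested otherwise.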

How the results depend on the processing

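The ERF2 difference kept its sign in EC, in S and in the average under every alternative, with adjusted p of 0.00129 to 0.929 in EC, 0.066 to 1.00 in S and 0.0149 to 0.518 in the average. Array weights called 1530 probe sets and 2 members in EC (ERF2 at -5.36) and 2 probe sets in S, and turned ERF4 in EC to -0.21, PTI5 in S to 0.13, ERF-H1 in S to -0.50 and the sector difference of the ERF2 effect to 0.32. A fit to only the 6 arrays compared called 1 probe set in EC. In the average, median centring called 2 probe sets. The filter on a mean of 4 called 3, including 1 member, ERF2 at -4.48, with 5083 probe sets tested. ERF2 met that filter through its WT signal. The spike-in covariate gave ERF4 -0.64 and a member median of -0.71 in EC. 3 alternatives were chosen after seeing the data. A fit of the average without the root pools called 2 probe sets, including 1 member, ERF2 at -4.48. That fit, which gave the lowest adjusted p of the average, counted EC and S of a pool as independent arrays. Without the 3 arrays whose spike-ins were brightest, 8 probe sets were called in EC and 7 in S, the second ERF3 probe set and ERF4 stood at -0.00028 and -0.44 in EC, and the member median was -0.80. With values raised to the reporter percentile, 2 probe sets were called in EC, PTI4 in EC was 0.99, PTI1 in S was -0.095 and the median in EC was 0.072. The causes of these changes were not tested.

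Leaving out each array in turn gave 0 to 10 probe sets and 0 to 1 members called in EC, 0 to 3 probe sets in S, and, by pools, 0 to 9 probe sets and 0 to 1 members in the average. ERF2 ranged from -5.36 to -4.07 in EC and from -4.92 to -4.21 in the average. The member median ranged from -0.80 to -0.15 in EC and from -0.60 to -0.12 in S. In EC the ranges crossed 0 for PTI5 (-1.36 to 0.17), ERF4 (-0.44 to 0.41) and the second ERF3 probe set (-0.00028 to 0.62). In S they crossed 0 for PTI5 (-0.69 to 0.039), ERF1a (-1.90 to 0.32), ERF4 (-0.34 to 0.91) and the second ERF3 probe set (-0.22 to 0.032). ERF2 ranged from -0.89 to 0.49 for the difference between sectors and from -1.19 to 0.20 for EC minus S in WT. Where a group kept 2 arrays, the spread was shared with the other groups.

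The replicate number as a block changed no call (0 members; ERF2 adjusted p = 0.3001 in EC, 0.502 in S and 0.435 in the average, by limma). Arrays of WT and L4 with one number had deviations correlated by -0.10 to 0.28 in EC and 0.07 to 0.38 in S, so the numbers were not taken to pair the genotypes. The root pool as a random block gave ERF2 a limma adjusted p = 0.137 in EC. Leaving the block out of the sector comparisons called 0 members and 0 of all probe sets. Signal over background limits PTI1, PTI4 and the second ERF3 probe set, and in L4 EC also ERF2, PTI6, ERF1a, ERF4 and the first ERF3 probe set.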
